A study of Mus musculus with 12 samples.

Results

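The non-clustered protocadherins are cell adhesion genes that lie singly in the genome, outside the large alpha, beta and gamma protocadherin arrays. The genes described here are the 10 rows of the count table with the symbols Pcdh1, Pcdh7, Pcdh8, Pcdh9, Pcdh10, Pcdh15, Pcdh17, Pcdh18, Pcdh19 and Pcdh20, of 23893 genes in all, and all 10 had counts and were tested. They were measured by RNA-seq in 12 libraries from mouse cortical neuron cultures, 3 in each of 4 groups. The study's general culture methods name wild-type C57BL6/J females and embryos at E13.5 to E15.5. The females used for the RNA-seq cultures are not stated separately. By the study's methods, these cultures carried the floxed Top1 allele on both chromosomes (Top1 fl/fl), so the control cells were not free of it. At 3 days in vitro (DIV) they received a lentivirus with the neuronal CaMKIIα promoter. It expressed tdTomato, a red fluorescent protein, in the cells named WT, or tdTomato-P2A-CRE, which adds the recombinase that removes a floxed stretch of Top1, in the cells named Top1 cKO. At DIV 15 the cells were given 300 nM topotecan (WT-Topot, Top1 cKO-Topot) or vehicle with 0.003% DMSO (WT-Veh, Top1 cKO-Veh), and they were harvested 3 days later. Between 85 and 90% of the cells took up virus, and the promoter is a neuronal one, so untransduced neurons and non-neuronal cells would keep Top1.

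Protocadherins are membrane proteins whose cadherin repeats bind the same protein on a neighbouring cell, and in the developing brain they guide axons, sort neurons into circuits and shape synapses. Most of the genes considered here encode delta-protocadherins. The delta1 members Pcdh1, Pcdh7 and Pcdh9 have a tail that can bind the phosphatase PP1. The delta2 members are Pcdh8, Pcdh10, Pcdh17, Pcdh18 and Pcdh19. All of these but Pcdh8 have a tail that can recruit the WAVE complex, a regulator of actin. Pcdh20 is placed differently by different classifications, and Pcdh15 stands apart as the protein of the tip link of inner ear hair cells. TOP1, the target of topotecan, relaxes the DNA supercoils that build up around a moving RNA polymerase, and topotecan traps it on the DNA strand it has cut. The study asked how loss of the enzyme compares with the drug, in particular for long genes, and the protocadherins span a wide range of gene lengths.

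The libraries held 1730164 to 4583777 counts, so that 3 counts corresponded to 0.687 to 1.73 CPM (counts scaled to edgeR's TMM library size). Top1 was at 117 to 164 CPM in the 6 WT libraries and at 27.1 to 44 CPM in the 6 Top1 cKO libraries, so the 2 kinds of cells were apart in every library. The labels only number the replicates, and the study's figure legend for these data gives 3 cultures. Whether same-numbered libraries of the 4 groups came from 1 culture is not stated. The p-values rest on the spread between the 3 libraries of a group, an estimate that edgeR steadies by borrowing from all genes. Adjusted p-values below are Benjamini-Hochberg values over all 23893 genes from edgeR's quasi-likelihood test, and a gene is called at an adjusted p under 0.01. Same-numbered libraries varied together, and where a model that also holds a term for the replicate number (the replicate block) gives another call, its value stands beside the result. Without this term the variation that same-numbered libraries share adds to the error. With it the p-values rest on the spread left after the term. Few libraries remain to estimate that spread, so very small block p-values owe much to the borrowing from all genes.

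The 3 longest genes spread over 411 kb or more, and the other 7 over at most 106 kb. Positions and lengths were taken from GENCODE vM1, which annotates NCBIM37 (mm9). Pcdh15 spanned 1550 kb (chr10:72562090-74112482), Pcdh9 873 kb (chr14:93414731-94287951) and Pcdh7 411 kb (chr5:58109260-58520590). The span of Pcdh15 joins 36 annotated transcripts, of which the longest by itself spanned 1086 kb. Pcdh19 followed with 106 kb (chrX:130117402-130223532), Pcdh17 with 93.5 kb (chr14:84843370-84936867) and Pcdh10 with 56.2 kb (chr3:45182320-45238488). The short genes were Pcdh1 with 26.1 kb, Pcdh18 with 14 kb (chr3:49547218-49561238), Pcdh20 with 6.65 kb (chr14:88864554-88871203) and Pcdh8 with 4.53 kb (chr14:80166587-80171119). The genes thus differed widely in genomic span and much less in coding sequence, which ran from 2.86 kb in Pcdh20 to 3.8 kb in Pcdh7 for the 9 genes other than Pcdh15, which had 7.7 kb. In those 9 genes a single exon block held between 60.7% (Pcdh1) and 95.4% (Pcdh20) of the coding bases, while in Pcdh15 the largest held 18.7% of coding bases spread over 47 blocks. The length of the long genes lies almost wholly in introns. Exons made up 0.425% of Pcdh9, 1.42% of Pcdh15 and 1.51% of Pcdh7, and the longest intron was 325 kb in Pcdh9, 384 kb in Pcdh15 and 216 kb in Pcdh7. Pcdh8, Pcdh17, Pcdh20 and Pcdh9 followed each other in this order on chromosome 14, with gaps of 4.67, 3.93 and 4.54 Mb and 1 to 3 other protein-coding genes in each gap. Pcdh10 and Pcdh18 lay 4.31 Mb apart on chromosome 3. The exons of Pcdh15 share 468 bases with an annotated pseudogene of the same symbol, whose reads the table cannot tell from its own.

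RefSeq promoter sequences were at hand for 9 of the 10 genes and were placed on NCBIM37 by an exact match. The sequences of the 3 long genes that fell after topotecan and of Pcdh19, the next in length, whose level was higher, are shown 5′ to 3′ along the strand of the gene. Each holds the bases before the RefSeq start, 250 of them except for Pcdh7, where 190 are shown because the annotated first exon begins earlier. Capitals mark a CCAAT box, the TATA box read as TATAAA, a GC box read as GGGCGG and a half-site read as TGACG, each on either strand, and none of these matches overlap.
Pcdh9 promoter, chr14:94289899-94290148, minus strand: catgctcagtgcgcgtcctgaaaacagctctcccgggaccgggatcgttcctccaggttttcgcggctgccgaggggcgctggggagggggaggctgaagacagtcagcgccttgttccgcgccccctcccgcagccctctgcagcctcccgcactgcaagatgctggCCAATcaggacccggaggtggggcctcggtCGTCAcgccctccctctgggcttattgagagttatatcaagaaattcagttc
Pcdh15 promoter, chr10:73284365-73284614, plus strand: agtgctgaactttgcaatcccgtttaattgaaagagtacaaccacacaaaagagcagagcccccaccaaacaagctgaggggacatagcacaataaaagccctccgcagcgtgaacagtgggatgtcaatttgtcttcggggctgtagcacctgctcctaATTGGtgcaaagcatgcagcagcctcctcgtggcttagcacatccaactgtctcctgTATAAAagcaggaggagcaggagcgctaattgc
Pcdh7 promoter, chr5:58109070-58109259, plus strand: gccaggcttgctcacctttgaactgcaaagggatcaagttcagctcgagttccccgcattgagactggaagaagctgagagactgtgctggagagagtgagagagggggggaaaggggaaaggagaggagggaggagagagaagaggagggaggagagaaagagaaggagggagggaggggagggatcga
Pcdh19 promoter, chrX:130223533-130223782, minus strand: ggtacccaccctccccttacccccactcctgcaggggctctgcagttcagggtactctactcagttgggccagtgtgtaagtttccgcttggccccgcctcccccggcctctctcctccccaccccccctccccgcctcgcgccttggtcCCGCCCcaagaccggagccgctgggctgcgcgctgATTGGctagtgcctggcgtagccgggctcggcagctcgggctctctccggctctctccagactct
CCAAT, read on both strands, was present in 8 of the 9 promoters, that of Pcdh7 being the exception, against 33.8% of all 32851 RefSeq promoters over the same 250 bases. TATAAA was present in 2 (Pcdh8 and Pcdh15, background 12.4%), GGGCGG in 4 (Pcdh10, Pcdh17, Pcdh18 and Pcdh19, background 32.7%) and TGACG in 2 (Pcdh9 and Pcdh10, background 17.8%). CCAAT occurred in promoters of genes that fell and of genes that did not, as in Pcdh9 and Pcdh19. G and C made up from 42.4% of the bases in Pcdh20 to 69.2% in Pcdh19, beside a median of 52.4% over all promoters. The RefSeq start of Pcdh15 lay 723 kb inside the annotated gene, which leaves 828 kb to its end, and that of Pcdh9 lay 1.95 kb before the annotated start. From the RefSeq starts Pcdh9, with 875 kb, would be the longest of the genes shown and Pcdh15 the next.

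In vehicle-treated WT cells the protocadherins were present at very unequal levels. Per kb of exon, a scale that allows for exon length, Pcdh9 stood highest at 79.1 ± 24 CPM per kb (SD, n = 3). Pcdh7 followed at 60.6 ± 16.1, Pcdh8 at 30.5 ± 9.76, Pcdh10 at 26.9 ± 2.15 and Pcdh1 at 20.7 ± 3.17. Below these came Pcdh17 at 15.2 ± 2.26, Pcdh20 at 13.9 ± 2.83, Pcdh19 at 9.36 ± 2.22, Pcdh18 at 1.97 ± 0.522 and Pcdh15 at 0.582 ± 0.175 CPM per kb. In this order Pcdh9 and Pcdh7, Pcdh8 and Pcdh10, and Pcdh17 and Pcdh20 differed by less than the larger SD of the pair, and the other neighbours by more. The exon lengths are those of GENCODE vM1, while the counts are over RefSeq exons, so the order of the genes depends on how these models match. GENCODE vM1 lists only coding exons for Pcdh9, which raises its value per kb. With the longest transcript in place of all exons, Pcdh10 was at 34.6, Pcdh1 at 32.3 and Pcdh15 at 1.39 CPM per kb. After topotecan the order in WT cells was another one. Pcdh8 led at 43.9 ± 8.68 CPM per kb, Pcdh10 and Pcdh1 followed at 26.1 ± 3.34 and 25.4 ± 3.91, and Pcdh7 and Pcdh19 stood at 19 ± 3.08 and 17.7 ± 3.87. Pcdh9, at 11.7 ± 5.45, was then close to Pcdh20 at 12 ± 0.336 and Pcdh17 at 11.7 ± 1.9.

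**Figure D1:**
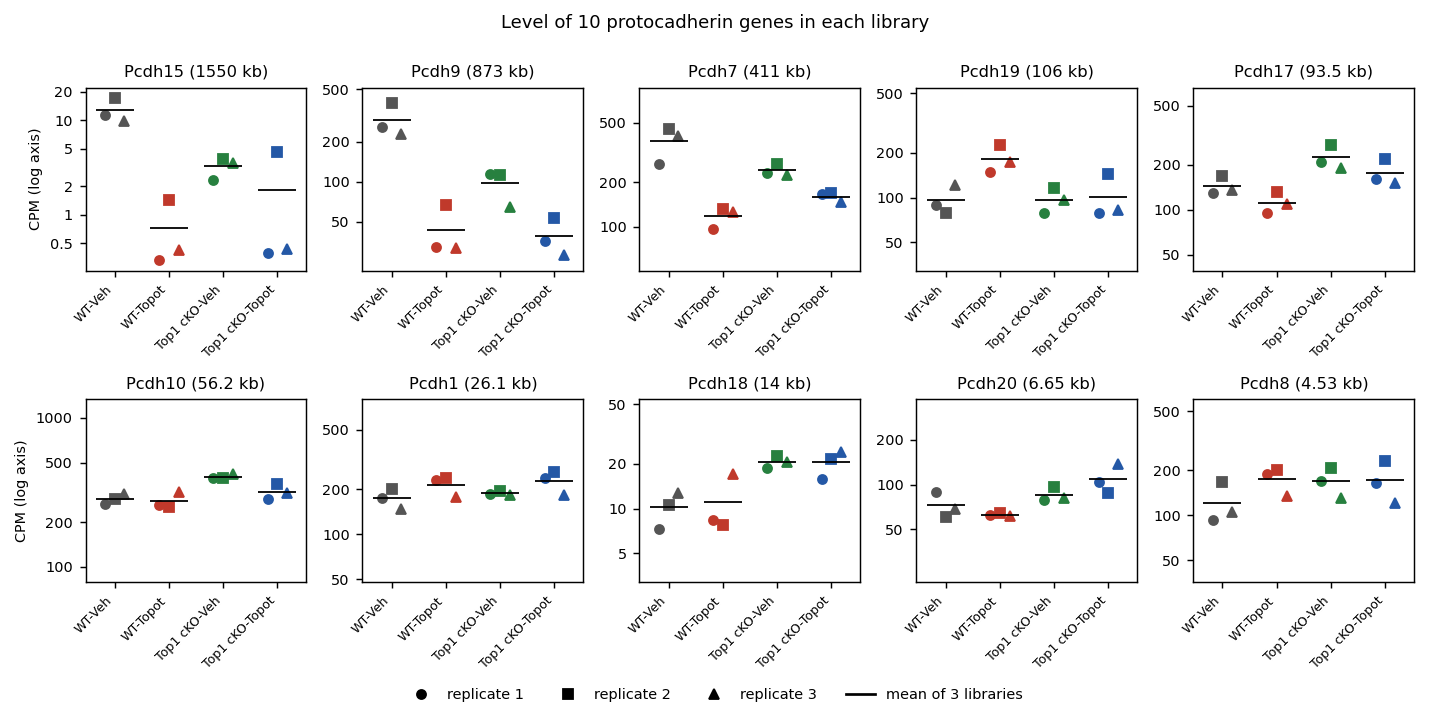
Level of each of the 10 genes in CPM on a log axis in the 12 libraries, with genes ordered by annotated length, symbols for the replicate numbers and a line for the mean of 3 libraries. Pcdh15, Pcdh9 and Pcdh7 have every WT-Topot library below every WT-Veh library, and Pcdh19 has every WT-Topot library above.

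Of the 10 genes, the 3 longest were called lower in WT cells given topotecan, and no other was. Pcdh15 was 16.1-fold lower by counts, Pcdh9 6.74-fold and Pcdh7 3.18-fold lower in mean CPM. Pcdh19, at 106 kb the next in length, was 1.89-fold higher and just missed the threshold, and the 6 shorter genes did not pass it. With the replicate block Pcdh19 and Pcdh8, the shortest, passed as higher.

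Pcdh9, which mice need for long-term social recognition, was at 258, 395 and 228 CPM in the 3 WT-Veh libraries and at 32.2, 67 and 31.7 CPM in the 3 WT-Topot libraries. The highest WT-Topot library lay far below the lowest WT-Veh library. The mean went from 294 ± 89.1 to 43.6 ± 20.2 CPM (SD, n = 3 each), a log2 fold change of -2.74 (SE 0.276, edgeR adjusted p = 2.5e-06). Pcdh7, also called NF-protocadherin and known from axon growth in the frog retina, was at 264, 455 and 408 CPM in WT-Veh and at 96.5, 133 and 125 CPM in WT-Topot. Here too the groups lay well apart. The log2 fold change was -1.67 (SE 0.214, edgeR adjusted p = 4.12e-05). Pcdh15, the hair cell gene, had few counts in these neurons, 39, 39 and 17 in the WT-Veh libraries and 1, 5 and 1 in the WT-Topot libraries. Scaled to library size, 7 counts against 95 gave a ratio of 0.0622 with an exact 95% interval of 0.0243 to 0.133, which covers counting error only. The fitted log2 fold change was -3.96 (SE 0.541, edgeR adjusted p = 8.07e-05), a value that depends on the prior count where counts are this low.

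The 3 genes that fell were 3 of 10, where 2.04% of all 23893 genes were called lower in this comparison and 0.682% were called higher. All 3 are longer than 300 kb, and among the 464 genes over 300 kb that averaged 1 CPM or more the share called lower was 53.2%, with a median log2 fold change of -1.42. Within that length class Pcdh7 was near the middle, with 40.5% of the genes at or below its log2 fold change, while Pcdh9 had 11.2% and Pcdh15 2.37% at or below theirs. The median over the 10 genes was -0.13, beside 0.03 over the 13720 genes that averaged 1 CPM or more. Libraries of the groups did not overlap for 3 genes in the lower and 1 in the higher direction, which 13.2% and 12.9% of those 13720 genes did as well.

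Pcdh19, the X-linked gene whose mutation causes an epilepsy in heterozygous females and whose protein pairs with N-cadherin, was at 88.4, 78.5 and 122 CPM in WT-Veh and at 147, 225.5 and 173 CPM in WT-Topot. All 3 WT-Topot libraries lay above the highest WT-Veh library. The log2 fold change was 0.93 (SE 0.211), with an edgeR adjusted p of 0.0109, not under the threshold of 0.01, and 8.23e-08 with the replicate block. Across the other alternatives the adjusted p ran from 0.000137 to 0.0733, the latter without WT-Topot replicate 2. Each of the 3 numbered pairs was higher with topotecan, by 0.73, 1.51 and 0.50 on the log2(CPM + 1) scale. Among the 3461 genes of 50 to 300 kb, 96.4% had a log2 fold change at or below that of Pcdh19. Its annotated exons share 57 bases with Gm16795, a transcript on the other strand, and whether the counting used strand is not given in the sources used here. Pcdh8 (arcadlin), which neuronal activity induces and which draws N-cadherin into the cell through TAOK2, was at 93, 166 and 106 CPM in WT-Veh and at 190.3, 200.1 and 136 CPM in WT-Topot. The groups overlapped, and the log2 fold change of 0.53 (SE 0.224) had an edgeR adjusted p of 0.273, against 0.00143 with the replicate block. With the block, 2 of the 10 genes were thus called higher (Pcdh8 and Pcdh19) and the same 3 lower, where 3.24% and 5.0% of all genes were called. Without it none was called higher by the quasi-likelihood test, 1 (Pcdh19) by DESeq2 and by edgeR's exact test, and 2 had an unadjusted p under 0.05, where 5.88% of all genes did (lower, 3 of 10 and 7.18%). Over all genes DESeq2 called 220 of 17955 tested higher and the exact test 240 of 23893.

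The other 5 genes were called in neither fit. Pcdh17, which acts in the assembly of synapses of the corticobasal circuits, was lower in all 3 pairs, at 145 ± 21.5 CPM in WT-Veh and 112 ± 18.1 in WT-Topot (SD, n = 3 each), but its log2 fold change of -0.37 (SE 0.193) did not pass (edgeR adjusted p = 0.461). Pcdh1, known from airway epithelium, had a log2 fold change of 0.30 (SE 0.187). Pcdh10, which growing striatal axons need, stood at -0.04 (SE 0.174), Pcdh18, whose protein binds Dab1, at 0.13 (SE 0.386) and Pcdh20, which helps to place cortical neurons in their layer, at -0.22 (SE 0.2). For Pcdh10 and Pcdh18 the sign of the value turned when single libraries were left out, and for Pcdh10 also without TMM scaling.

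**Figure D2:**
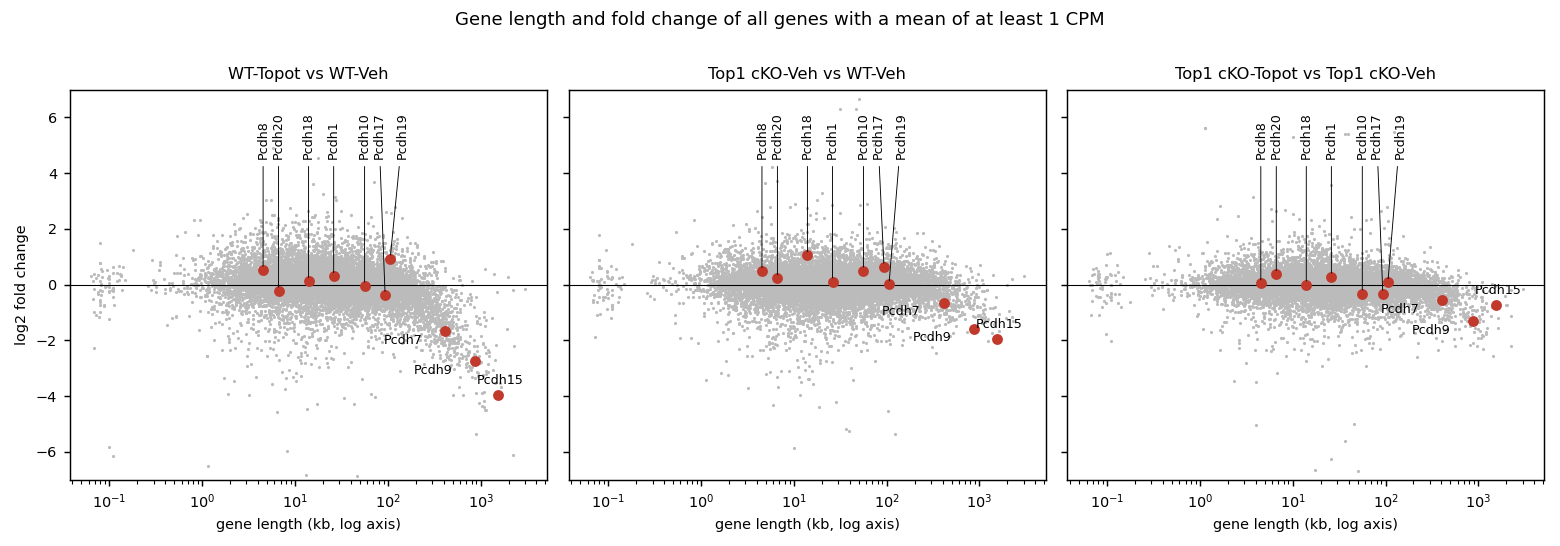
Log2 fold change against gene length in kb on a log axis for 13332 genes of known length that averaged 1 CPM or more (grey), with the 10 protocadherin genes in red, in 3 comparisons. Pcdh7, Pcdh9 and Pcdh15 lie in the falling right end of the cloud in WT-Topot against WT-Veh, and Pcdh19 in the cloud's upper part with 0.93. Outside the plotted range fall 1, 2 and 0 genes in the 3 panels.

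Markers of cell types moved along with some of these results, and their part in them was not tested. Of 7 astrocyte markers, Gfap (log2 fold change -2.54) and Slc1a3 (-1.52) were called lower in WT-Topot against WT-Veh, and 4 with the block, which also called 4 lower in Top1 cKO-Topot. None was called in Top1 cKO-Veh. Their summed level ran from 1266 to 3276 CPM in WT-Veh and 1305 to 3682 in Top1 cKO-Veh, and after topotecan from 618 to 1298 in WT and 624 to 1720 in Top1 cKO cells, and none was at 0. Of 5 general neuronal markers Rbfox3 was called lower in WT-Topot, and with the block also Map2 and Snap25, while Tubb3 was then higher. The block called Snap25 higher in Top1 cKO-Veh and Top1 cKO-Topot. The 5 markers had a sum of 3185 to 4471 CPM in WT-Veh and 2852 to 3287 in WT-Topot, and in Top1 cKO cells of 3823 to 4788 with vehicle and 3891 to 4748 with topotecan. Of 5 excitatory markers Tbr1 was called higher in WT-Topot (sums of 2355 to 2622 in WT-Veh and 2731 to 3122 CPM in WT-Topot) and Slc17a6 higher in Top1 cKO-Topot, and the block added Slc17a7 and Slc17a6 in WT-Topot. Markers of neurons were thus abundant in every library, as the labels have it. Of 8 interneuron markers none was called against WT-Veh without the block, and with it Gad1, Gad2, Sst and Npy were lower in WT-Topot, and Lhx6 and Dlx1 were higher in all 3 groups, with sums of 802.5 to 1769 CPM in WT-Veh and 573 to 1051 in WT-Topot, and in Top1 cKO cells of 1221 to 1442 with vehicle and 937 to 1386 with topotecan. Microglial markers summed to 4.03 to 15.8 CPM in WT-Veh and 4.28 to 17.2 in WT-Topot, and in Top1 cKO cells to 1.5 to 5.5 with vehicle and 0.398 to 7.97 with topotecan, with Aif1 and Tyrobp at no more than 3 counts in any library, and with the block C1qb was lower in both Top1 cKO groups. Markers of oligodendrocyte lineage cells (98.5 to 297 CPM over all groups) and of endothelial cells, mural cells and fibroblasts (12 to 125 CPM) had no call against WT-Veh without the block. With it Olig1 was higher in all 3 groups (log2 1.38 for WT-Topot, then 1.51 for Top1 cKO-Veh, and 2.13 for Top1 cKO-Topot), Olig2 and Rgs5 were higher in Top1 cKO-Topot, and Mbp was lower in WT-Topot. Of 7 markers of proliferating and progenitor cells Nes was called higher in WT-Topot and Top1 cKO-Topot (sums of 87.5 to 141 CPM in WT-Veh and 165 to 216.5 in WT-Topot, and in Top1 cKO cells of 96.7 to 182 with vehicle and 132 to 285 with topotecan), with Top2a and Ccnb1 at no more than 3 counts in any library.

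Deletion of Top1 without drug lowered Pcdh9 to 33.3% of its WT-Veh level, the 1 gene of the 10 past the threshold. Pcdh15 and Pcdh7 had lower values, and Pcdh8, Pcdh10, Pcdh17 and Pcdh18 higher values, none of which passed edgeR's quasi-likelihood test without the replicate block and all of which passed with it. All comparisons with WT-Veh use the same 3 WT-Veh libraries.

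Pcdh9 was at 115, 113 and 65.1 CPM in the Top1 cKO-Veh libraries, all below the lowest WT-Veh library at 228 CPM. The log2 fold change was -1.58 (SE 0.249, edgeR adjusted p = 0.00826). This call depended on single libraries, since the adjusted p was 0.0163 without Top1 cKO-Veh replicate 2 and 0.0393 when WT-Veh replicate 2 was left out, with log2 fold changes of -1.69 and -1.30, and 0.038 with a filter on low counts. With the block the adjusted p was 3.84e-32. The share of all genes called lower was 0.126% (higher 0.0460%), and 2.95% with the block, in which 3 of the 10 were called lower; of the genes over 300 kb it was 2.37% and 30.0%. Pcdh15 had 6, 17 and 7 counts in Top1 cKO-Veh, a ratio to WT-Veh of 0.263 by counts (exact 95% interval 0.169 to 0.401), and its libraries did not overlap with those of WT-Veh. The log2 fold change of -1.94 (SE 0.411) had an edgeR adjusted p of 0.0427, and 3.24e-06 with the block, and edgeR's exact test called it without the block (adjusted p 0.00303). Pcdh7 was at 229.6, 264.3 and 224.5 CPM, which overlapped with the lowest WT-Veh library at 263.6 CPM. Its log2 fold change of -0.65 (SE 0.203) had an edgeR adjusted p of 0.22, and 3.5e-06 with the block.

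Pcdh18 was at 18.8, 22.4 and 20.5 CPM in Top1 cKO-Veh, where WT-Veh had 7.31, 10.5 and 12.7. The lowest deleted library thus lay above the highest control. The log2 fold change was 1.05 (SE 0.311, edgeR adjusted p = 0.185, and 0.00135 with the block). Pcdh17 was at 210.0, 273 and 191 CPM against 129, 169 and 137 in WT-Veh, again without overlap, with a log2 fold change of 0.64 (SE 0.193, edgeR adjusted p = 0.199, and 1.86e-05 with the block). Pcdh10 was at 393, 396 and 420.4 CPM against 263, 286 and 309. Its log2 fold change was 0.50 (SE 0.162, edgeR adjusted p = 0.241, and 0.000216 with the block), and the 3 pairs gave 0.58, 0.47 and 0.44 on the log2(CPM + 1) scale. These 3 genes and Pcdh8 (log2 fold change 0.48, SE 0.235, block adjusted p 0.00293) are the delta2 members apart from Pcdh19, whose log2 fold change was 0.01 (SE 0.217). Without the block none of the 10 genes was called higher by edgeR's quasi-likelihood test, by its exact test or by DESeq2, and 3 had an unadjusted p under 0.05, which 3.90% of all genes had in this direction (lower, 3 of 10 and 4.82%). Over all genes the exact test called 39 of 23893 higher and DESeq2 63 of 17930 tested. With the block the 4 genes stand beside 2.60% of all genes called higher. Pcdh1 and Pcdh20 were at 0.11 (SE 0.178) and 0.22 (SE 0.206). Non-overlapping libraries occurred in 2 genes downwards and 3 upwards, beside 10.3% and 9.58% of genes above the 1 CPM limit.

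Cells with both the deletion and the drug again had low values of the 3 long genes, and called 2 of them. Pcdh9 was at 36.2, 53.1 and 28 CPM in Top1 cKO-Topot, a log2 fold change against WT-Veh of -2.88 (SE 0.256, edgeR adjusted p = 6.06e-07). Pcdh7 was at 165, 168 and 146 CPM, a log2 fold change of -1.21 (SE 0.204, edgeR adjusted p = 0.000962). Every library of both genes lay below WT-Veh. Pcdh15 had 1, 14 and 1 counts, replicate 2 being far above the other two. Its log2 fold change of -2.65 (SE 0.594) had an edgeR adjusted p of 0.0123, and 1.04e-05 with the block. DESeq2 and edgeR's exact test called it too (adjusted p 0.00518 and 0.00391). Without Top1 cKO-Topot replicate 2 the value was -4.78 (adjusted p 0.000826), and by counts the ratio to WT-Veh was 0.16 (exact 95% interval 0.0881 to 0.274). Of all genes 1.21% were called lower in this comparison and 0.473% higher, and 4.02% lower with the block, which called 3 of the 10. Libraries did not overlap for 3 genes downwards and 1 upwards, beside 14.4% and 12% of genes above the 1 CPM limit. Pcdh18 was at 15.9, 21.6 and 24 CPM, above all WT-Veh libraries, with a log2 fold change of 1.06 (SE 0.332, edgeR adjusted p = 0.086, and 0.00496 with the block). Pcdh20 (0.60, SE 0.219) and Pcdh8 (0.53, SE 0.245) also passed only with the block (adjusted p 0.00869 and 0.00812), where 3.34% of all genes were called higher. Without it none of the 10 was called higher by edgeR's tests or DESeq2, and 3 had an unadjusted p under 0.05, where 6.25% of all genes did (lower, 3 of 10 and 7.22%). Over all genes the exact test called 172 of 23893 higher and DESeq2 205 of 17935 tested. Pcdh17, Pcdh10, Pcdh1 and Pcdh19 had log2 fold changes of 0.31, 0.19, 0.40 and 0.10 and passed in neither fit.

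**Figure D3:**
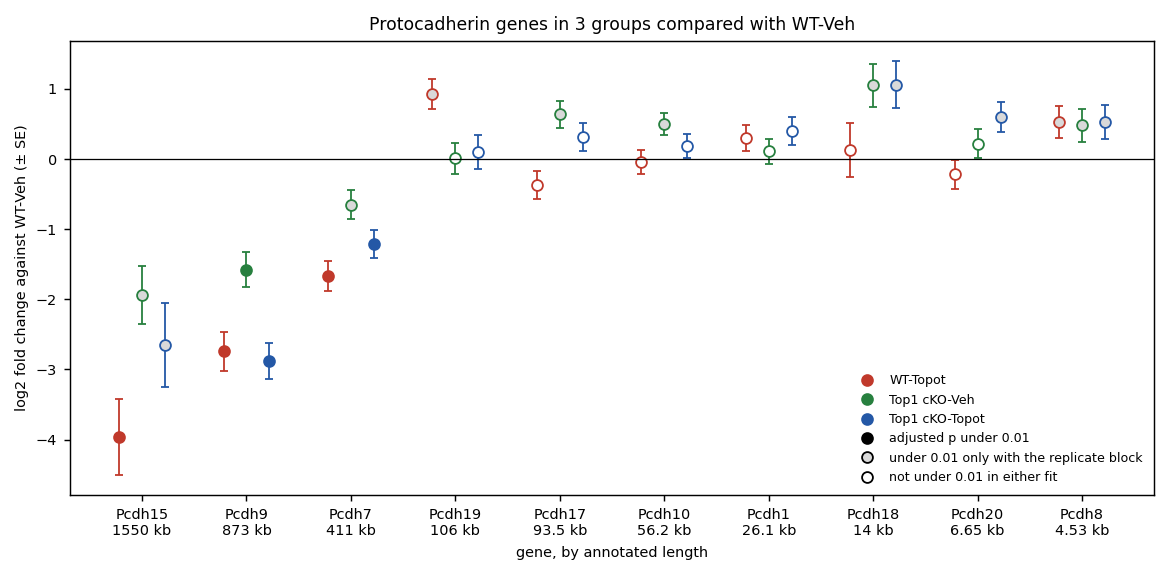
Log2 fold change (± SE) against WT-Veh of the 10 genes, ordered by length, for the drug, the deletion and both together, each from 3 against 3 libraries and all with the same WT-Veh libraries. Pcdh15, Pcdh9 and Pcdh7 are below 0 in all 3 groups, with -3.96, -2.74 and -1.67 in WT-Topot, and the filled, grey and open points show the fit in which a value passed.

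Whether topotecan acts alike in cells with and without the Top1 deletion was looked at first within Top1 cKO cells and then as an interaction. Within Top1 cKO cells Pcdh9, Pcdh7, Pcdh10 and Pcdh17 had lower values after topotecan in every pair. Without the block no gene of the 10 was called by edgeR's quasi-likelihood test. Pcdh9 went from a mean of 97.9 ± 28.4 CPM in Top1 cKO-Veh to 39.1 ± 12.8 in Top1 cKO-Topot (SD, n = 3 each) without overlap, a log2 fold change of -1.31 (SE 0.263) with an edgeR adjusted p of 0.0847. Pcdh7 went from 239 ± 21.7 to 159.8 ± 11.6 CPM, also without overlap, a log2 fold change of -0.57 (SE 0.158, edgeR adjusted p = 0.395). With the block both passed (adjusted p 1.41e-14 and 3.03e-06), as did Pcdh10 at -0.32 (SE 0.0862, adjusted p 0.00931), where 1.74% of all genes were called lower. Non-overlap downwards held for these 3 genes, beside 6.56% of genes above the 1 CPM limit. Without the block 0.00837% of all genes were called lower and 0% higher, 2 of the 10 had an unadjusted p under 0.05 downwards (Pcdh7 and Pcdh9, background 2.62%), and DESeq2 called 1, Pcdh9 (adjusted p 0.00246). Without Top1 cKO-Veh replicate 3 the quasi-likelihood test called Pcdh9 too, at -1.52 (adjusted p 1.48e-05). In the higher direction the count was 0 in both fits, by DESeq2, at an unadjusted p under 0.05 and by non-overlap, where 0.858% of all genes were called with the block, 1.69% had such a p and 5.17% did not overlap. Pcdh15, with 6, 17 and 7 counts against 1, 14 and 1, could not be told apart between vehicle and drug, with a ratio of 0.609 (exact 95% interval 0.31 to 1.15).

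The difference between the effects themselves was tested as the interaction of topotecan and Top1 deletion over all 12 libraries. A positive value means that topotecan lowered the gene less, or raised it more, in Top1 cKO cells. It was 1.08 for Pcdh7 (SE 0.268, edgeR adjusted p = 0.0513), 1.42 for Pcdh9 (SE 0.42, adjusted p = 0.131) and 3.23 for Pcdh15 (SE 0.982, adjusted p = 0.149), and -0.86 for Pcdh19 (SE 0.336, adjusted p = 0.383). None passed in this fit, in which 0.398% of all genes were called in the positive and 0.0377% in the negative direction. At an unadjusted p under 0.05 there were 4 positive and 1 negative (background 4.57% and 3.65%), and DESeq2 called 1, Pcdh7 (adjusted p 0.00568). Of the 18705 genes that DESeq2 tested it called 275 in the positive and 82 in the negative direction. With the replicate block all 4 passed, at 1.08 (adjusted p 1.31e-05), 1.43 (3.81e-06), 3.31 (0.00373) and -0.84 (0.00826), where 2.44% and 1.53% of all genes were called. Of genes over 300 kb 40.5% were called in the positive direction with the block. The value of Pcdh15 hangs on 1 library, Top1 cKO-Topot replicate 2, which holds 14 of the 16 counts of its group. In the fit without the block it was 1.11 when that library was left out (edgeR adjusted p = 1). Each of the 3 pairs gave the same sign for these 4 genes, for Pcdh9 1.32, 1.47 and 1.62 and for Pcdh19 -0.73, -1.21 and -0.72 on the log2(CPM + 1) scale. The block fit uses these same pairs, so this is a description and no separate support. The pairs of Pcdh8, not called, shared a sign too. The pairs of Pcdh17 gave similar values in both kinds of cells, with -0.44, -0.37 and -0.32 in WT and -0.38, -0.31 and -0.34 in Top1 cKO cells, and an interaction of 0.03 (SE 0.271). Without WT-Veh replicate 1, Pcdh7 passed with an interaction of 1.29 (edgeR adjusted p = 0.00677).

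**Figure D4:**
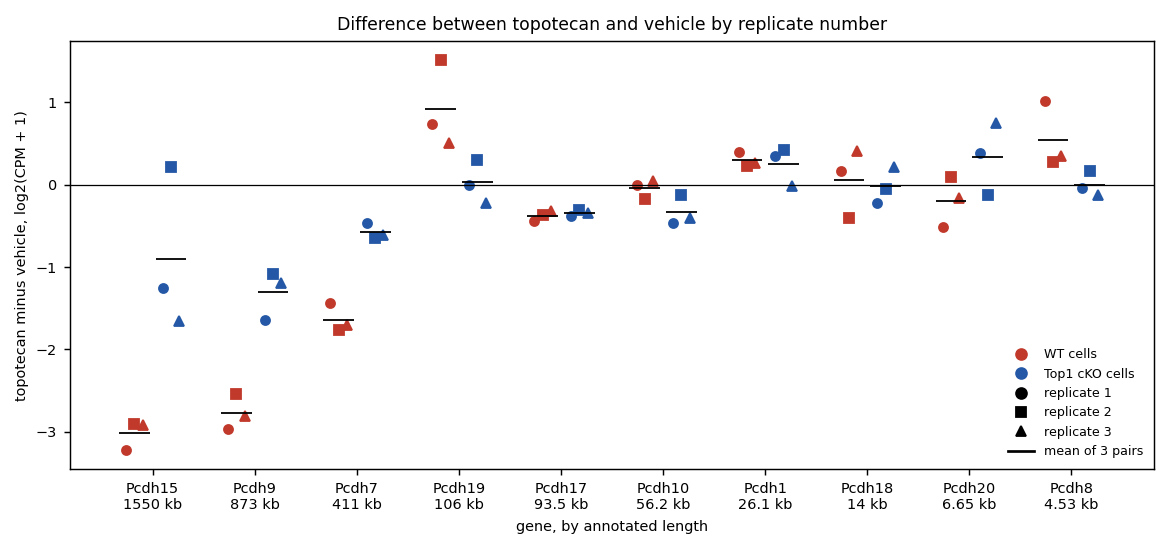
Difference in log2(CPM + 1) between the topotecan and vehicle library of the same replicate number, in WT and in Top1 cKO cells, for the 10 genes ordered by length, with lines for the mean of 3 pairs. Pcdh9 differs by -2.97 to -2.54 in WT and by -1.64 to -1.08 in Top1 cKO cells, whereas the pairs of Pcdh17 overlap.

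The drug and the deletion were also set against each other directly. Against Top1 cKO-Veh, WT-Topot cells had less Pcdh7, with a log2 fold change of -1.02 (SE 0.174, edgeR adjusted p = 0.0022) and less Pcdh17, with -1.01 (SE 0.187, edgeR adjusted p = 0.00415), and these 2 of 10 were called where 1.23% of all genes were called lower and 0.293% higher. Pcdh17 was at 94.8, 131 and 109 CPM in WT-Topot and at 210.0, 273 and 191 CPM in Top1 cKO-Veh, with group means of 112 and 225 CPM on opposite sides of the WT-Veh mean of 145 CPM. Neither call held throughout: without Top1 cKO-Veh replicate 2 the adjusted p was 0.0147 for Pcdh7 and 0.0338 for Pcdh17, without WT-Topot replicate 1 0.0139 and 0.0212, and for Pcdh17 it was 0.017 without WT-Topot replicate 3 and 0.0102 with a filter on low counts. Pcdh9 (-1.17, SE 0.281), Pcdh10 (-0.54, SE 0.157) and Pcdh18 (-0.92, SE 0.323) were called lower by the quasi-likelihood test with the block (adjusted p 5.69e-07, 3.56e-05 and 0.00483) and not without it. DESeq2 called Pcdh9 without the block (adjusted p 0.00465), as did the quasi-likelihood test without Top1 cKO-Veh replicate 1 or 3 or WT-Topot replicate 2 (adjusted p 0.00607, 7.96e-06 and 0.00044). Pcdh19 was at 147 to 225.5 CPM in WT-Topot and 78.6 to 115 CPM in Top1 cKO-Veh. Its log2 fold change of 0.91 (SE 0.198) had an edgeR adjusted p of 0.0138, and 1.15e-07 with the block, where 2.93% of all genes were called higher and 4.80% lower. DESeq2 and edgeR's exact test called it without the block, while the quasi-likelihood test called none of the 10 higher and 1 had an unadjusted p under 0.05 (background 5.4%, and lower, 7 of 10 and 6.71%). Over all genes DESeq2 called 163 of 17961 tested higher and 466 lower, and the exact test 191 of 23893 higher. Libraries did not overlap for 6 genes downwards and 1 upwards, beside 12.3% and 12.1% of genes above the 1 CPM limit.

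Among topotecan-treated cells, those with the deletion had lower values of Pcdh19 and higher values of Pcdh17, Pcdh18 and Pcdh20, which passed the quasi-likelihood test with the block and not without it. Pcdh19 was at 78.9, 143 and 82.2 CPM in Top1 cKO-Topot, each below the lowest WT-Topot library at 147 CPM. The log2 fold change was -0.84 (SE 0.214, edgeR adjusted p = 0.0191, and 3.01e-07 with the block). Pcdh20 was at 104, 88 and 137 CPM against 62.3, 64.7 and 61.2 in WT-Topot, a log2 fold change of 0.79 (SE 0.194, edgeR adjusted p = 0.0141, and 5.35e-05 with the block). Pcdh17 stood at 0.66 (SE 0.187, edgeR adjusted p = 0.0373, and 4.69e-05 with the block) and Pcdh18 at 0.91 (SE 0.331, edgeR adjusted p = 0.138, and 0.00501 with the block). No gene of the 10 was called without the block by edgeR's quasi-likelihood test, beside 1.03% of all genes called lower and 1.46% higher. At an unadjusted p under 0.05 there were 1 lower and 4 higher (background 7.28% and 6.90%), and DESeq2 and edgeR's exact test each called 1, Pcdh20. Over all genes DESeq2 called 485 of 17918 tested higher and the exact test 410 of 23893. Pcdh19 also passed with library size only (adjusted p 0.00632) and without Top1 cKO-Topot replicate 2 or WT-Topot replicate 1 or 3 (0.00246, 0.000588 and 0.0078), and Pcdh17 without Top1 cKO-Topot replicate 3 (0.00286). With the block 1 was called lower and 3 higher, beside 4.08% and 4.6% of all genes. Pcdh9 was close in both drug-treated groups, at 43.6 ± 20.2 and 39.1 ± 12.8 CPM, a log2 fold change of -0.16 (SE 0.276) whose sign turned when single libraries were left out.

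The make-up of the family's summed level differed between the groups. The 10 genes together were at 1589 ± 234 CPM in WT-Veh and 1198 ± 107 in WT-Topot, and in Top1 cKO cells at 1529 ± 139.5 with vehicle and 1330 ± 195 with topotecan (SD, n = 3 each). The 3 genes over 300 kb were at 682.5 ± 170.1 and 162.5 ± 36.4 CPM in these WT groups and at 341 ± 44.5 and 201 ± 25.3 in the Top1 cKO groups. The 7 others were at 907 ± 64.3 and 1035 ± 73.2 CPM in WT and at 1189 ± 101 and 1129 ± 172 CPM in Top1 cKO cells, again with vehicle first. Pcdh9 made up 18.3 ± 3.4% of the family's CPM in WT-Veh and 3.56 ± 1.31% in WT-Topot, and Pcdh19 6.19 ± 1.82% and 15.1 ± 1.98%. These shares also depend on the sum, which was lower in WT-Topot, and are not scaled to exon length. Pcdh19 itself was 1.89-fold higher in mean CPM. In bulk cultures fewer cells of a type and less RNA per cell cannot be told apart in any of these levels.

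Of the related genes outside this set, Pcdh11x, a delta1 protocadherin of 620 kb on the X chromosome, was at 66.1, 152.5 and 123 CPM in WT-Veh and at 12.4, 24.6 and 23.1 CPM in WT-Topot. It fell with topotecan by 2.50 on the log2 scale (SE 0.301, edgeR adjusted p = 1.99e-05). Its log2 fold change in Top1 cKO-Veh was -1.08 (SE 0.263, edgeR adjusted p = 0.081, and 1.76e-09 with the block). In Top1 cKO-Topot against WT-Veh it was -2.64 (SE 0.317, edgeR adjusted p = 2.38e-05). Within Top1 cKO cells topotecan gave -1.58 (SE 0.278, edgeR adjusted p = 0.042, and 6.56e-14 with the block). Pcdh12, a protocadherin of endothelial cells, had 0 to 2 counts per library, too few to compare.

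Few protein partners of the family were called against WT-Veh without the block. Of 9 genes of the WAVE complex none was called lower or higher against WT-Veh in any of the other 3 groups, with medians of 0.08, -0.04 and -0.02 in log2. With the block Cyfip2 was called lower in WT-Topot (-0.70, edgeR adjusted p = 8.4e-08) and Wasf1 and Abi1 in Top1 cKO-Topot. Wasf1 was lower in Top1 cKO-Topot than in WT-Topot, at 141, 147 and 119.8 against 270.4, 293 and 291 CPM, a log2 fold change of -1.07 (SE 0.165, edgeR adjusted p = 0.000215). None of the 3 PP1 catalytic subunit genes was called without the block in any comparison, with medians from -0.23 to 0.28. With it Ppp1cc was called higher in Top1 cKO-Topot against WT-Veh and against WT-Topot. Of 8 other partners (Cdh2, Taok2, Dab1, Dlg4, Mdm2, Mef2a, Mef2c and Mef2d), Dab1, an adaptor of reelin signalling that binds Pcdh18, fell in WT-Topot. It was at 121, 176 and 135 CPM in WT-Veh and 37.2, 69.3 and 44.5 CPM in WT-Topot, a log2 fold change of -1.50 (SE 0.234, edgeR adjusted p = 0.000305), and -0.96 (SE 0.206, adjusted p 0.00864) in Top1 cKO-Topot. In Top1 cKO-Veh it passed with the block and not without it (-0.74, adjusted p 6.69e-06 and 0.124). With the block Dlg4, which encodes PSD-95, was also called lower in all 3 groups (adjusted p 0.000456, 1.24e-06 and 0.00103), Taok2 higher in WT-Topot (0.000382) and Mdm2 higher in Top1 cKO-Topot (0.00132). Mef2c, a transcription factor that acts on synapse number together with Pcdh10, was called lower in Top1 cKO-Topot (-0.99, SE 0.16, edgeR adjusted p = 0.000593), with -0.60 and -0.80 in WT-Topot and Top1 cKO-Veh, which passed with the block (adjusted p 3.29e-07 and 3.15e-14) and not without it. Cdh2, the N-cadherin that Pcdh8 and Pcdh19 bind, was at 108 ± 17 CPM in WT-Veh and 81.4 ± 25.6 in WT-Topot and was called in no comparison. Of the 11 genes that work with Pcdh15 in the hair bundle, Cdh23, Ush1c, Ush1g, Lhfpl5, Tmc1, Tmc2 and Clrn1 had at most 3 counts in each WT-Veh library. In this list 1 call was made in the 6 comparisons of groups, Tmie lower in Top1 cKO-Topot than in WT-Topot (-2.46, SE 0.56, edgeR adjusted p = 0.00834), and 1 with the block besides, Tmie again, higher in WT-Topot against Top1 cKO-Veh.

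The genes whose pattern over the 12 libraries was most like that of each protocadherin were found by Pearson's r of log2(CPM + 1) among 9507 genes averaging 10 CPM or more, a limit that left out Pcdh15. These correlations share the group means and the library scaling and are given as a description. For Pcdh9 they were Edil3 (r = 0.984), Ptprd (0.984) and Dlgap1 (0.981), genes of 502, 2271 and 852 kb. For Pcdh7 they were Fgf12 (0.976), Ank2 (0.973) and Nrxn3 (0.971), of 285, 487 and 1612 kb. The closest genes of both were thus long themselves, while those of Pcdh1, Pcdh8, Pcdh10, Pcdh18, Pcdh19 and Pcdh20 spanned 1.31 to 100.3 kb. They were Kcnj10, Zcchc14 and 9830001H06Rik for Pcdh1 (0.921 to 0.935), Dnajc5, Ago1 and Cdk7 for Pcdh8 (0.929 to 0.937), Atp6v0e2, Pcdhb14 and Bloc1s4 for Pcdh10 (0.866 to 0.914), and Lztfl1, Nap1l2 and Specc1l for Pcdh18 (0.910 to 0.926). Pcdh19 was closest to Cbx5, Nyap1 and Smarcc2 (0.916 to 0.922), Pcdh20 to Dusp8, Pias2 and Fen1 (0.882 to 0.936), and Pcdh17 to Sv2c, Med12l and Adam22 (0.948 to 0.971), which span 173, 311 and 296 kb. Within the family Pcdh7 and Pcdh9 went most closely together (r = 0.903), then Pcdh10 and Pcdh18 (0.833), Pcdh1 and Pcdh8 (0.813) and Pcdh10 and Pcdh17 (0.771). Pcdh19 had negative values with 6 of the other 8 genes compared, from -0.515 with Pcdh20 to -0.253 with Pcdh10, and positive ones with Pcdh1 and Pcdh8.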

How the data were processed

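Polyadenylated RNA of the 12 samples (RNA integrity number over 7) was sequenced. According to the methods, the authors removed artefact reads with TagDust, aligned the rest to mm9 with TopHat, discarded ribosomal reads and deposited raw counts over RefSeq exons summed by gene symbol; the counting program, strand setting and versions are not given in the sources used here. From these deposited counts, edgeR 4.0.16 (R 4.3.3, limma 3.58.1) with TMM scaling and no filter was run on each pair of groups, and on all 12 libraries for the interaction, with Benjamini-Hochberg adjustment over 23893 genes. Libraries with the same replicate number correlated in their deviations from group means (r 0.261 to 0.485 in 18 pairs, against -0.384 to -0.0494 in 36 others, 13720 genes), so the numbers were taken to pair them. Deviations sum to 0 within a group, so the negative values follow in part from the positive ones. DESeq2 1.42.0, edgeR's exact test, other scalings, filterByExpr, a threshold of 0.05 and leaving out single libraries were alternatives. Of the symbols, 21013 matched the annotation directly and 1046 by a synonym. The genes named are the 10 members, fixed partner and marker lists, Pcdh11x, Pcdh12 and the 3 most similar genes of each. Members and lists were chosen with earlier results of these data known. Statistical scripts were tested on simulated data.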

Additional observations from a re-analysis of the deposited data

Results flagged for a closer look

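The effect of topotecan differed between Top1 cKO and WT cells for 4 of the 10 genes when the interaction was tested with the replicate block in edgeR, a fit in which 2.44% of all genes were called in the positive and 1.53% in the negative direction, and 40.5% of genes over 300 kb in the positive. The difference, Top1 cKO minus WT, was 1.08 in log2 for Pcdh7 (adjusted p 1.31e-05), 1.43 for Pcdh9 (3.81e-06), 3.31 for Pcdh15 (0.00373) and -0.84 for Pcdh19 (0.00826). All 3 numbered pairs had the sign of the difference in each of these genes. The block fit uses these same pairs, so their signs are no separate support. The pairs of Pcdh8, which was not called, also shared a sign (-1.06, -0.10 and -0.48). Without the block none of them passed edgeR's quasi-likelihood test over all 12 libraries, with adjusted p-values of 0.0513, 0.131, 0.149 and 0.383, while Pcdh7 passed by DESeq2 (1.12, adjusted p 0.00568) and without WT-Veh replicate 1 (1.29, 0.00677). DESeq2 called 275 of 18705 tested genes in the positive direction. Pcdh15 rests on 7, 16, 30 and 95 counts in WT-Topot, Top1 cKO-Topot, Top1 cKO-Veh and WT-Veh, and 14 of the 16 come from replicate 2, without which the value was 1.11 (adjusted p 1, no block).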

How the results depend on the processing

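Of 947 alternative values of the log2 fold changes, 840 kept direction and call, 59 newly passed the threshold, 9 no longer passed and 39 turned in sign, the last all in values that were not called. The 3 genes called lower in WT-Topot against WT-Veh stayed 3 under every alternative run, and the 2 in Top1 cKO-Topot against WT-Veh stayed 2 or became 3. Over all genes the alternatives called from 381 (of 11712 tested) to 1195 (of 23893) lower in the first comparison. In the second they called from 192 to 961 of 23893. The count called higher in WT-Topot against WT-Veh was 0, and became 2 with the replicate block, 1 with library size only, DESeq2, the exact test or a threshold of 0.05, and 0 to 1 without single libraries. Over all 23893 genes the calls were 163, and then 775, 211, 220 (of 17955 tested), 240, 334 and 110 to 291 in the same order. For Top1 cKO-Veh against WT-Veh, 1 gene was called lower, 3 with the block, 0 with filterByExpr, 2 with the exact test or a threshold of 0.05 and 0 to 1 without single libraries, and 0 higher became 4 with the block. Over all 23893 genes 30 were called lower, and then 706, 3 (of 11540 tested), 129, 121 and 7 to 85 in the same order. The 11 called higher became 622 with the block. For Top1 cKO-Topot against WT-Veh, 0 higher became 3 with the block, where 113 of all 23893 genes became 799. For Top1 cKO-Topot against Top1 cKO-Veh, 0 lower became 3 with the block, 1 with DESeq2 and 0 to 1 without single libraries. Over all 23893 genes 2 became 415, 44 (of 17854 tested) and 1 to 117. For WT-Topot against Top1 cKO-Veh, 2 lower became 5 with the block, 3 with DESeq2 or a threshold of 0.05, 1 with filterByExpr and 0 to 3 without single libraries, and 0 higher became 1 with the block, library size only, DESeq2, the exact test or 0.05 and 0 to 1 without single libraries. Over all 23893 genes 295 lower became 1147, 466 (of 17961 tested), 553, 198 (of 11804) and 173 to 652. In the same way 70 higher became 699, 121, 163 (of 17961), 191, 247 and 41 to 219. For Top1 cKO-Topot against WT-Topot, 0 lower became 1 with the block, library size only or 0.05 and 0 to 1 without single libraries, and 0 higher became 3 with the block, 1 with DESeq2 or the exact test, 2 with 0.05 and 0 to 1 without single libraries. Over all 23893 genes 246 lower became 976, 343, 555 and 157 to 348. In the same way 350 higher became 1100, 485 (of 17918 tested), 410, 659 and 232 to 543. In the interaction 0 negative became 1 with the block, and 0 positive became 3 with the block, 1 with DESeq2 and 0 to 1 without single libraries. Over all 23893 genes 9 negative became 365, and 95 positive became 583, 275 (of 18705 tested) and 48 to 123. The block changed no other call of these genes, and the cause of these shifts was not tested.

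Signs turned without single libraries in 14 uncalled values. In WT-Topot against WT-Veh Pcdh10 ran from -0.15 to 0.03 (0.05 with library size only) and Pcdh18 from -0.31 to 0.34. Pcdh19 ran from -0.14 to 0.22 in Top1 cKO-Veh and from -0.25 to 0.30 in Top1 cKO-Topot, both against WT-Veh. In Top1 cKO-Topot against Top1 cKO-Veh Pcdh8 ran from -0.23 to 0.24 and Pcdh19 from -0.25 to 0.22, and in WT-Topot against Top1 cKO-Veh Pcdh8 ran from -0.12 to 0.22. In Top1 cKO-Topot against WT-Topot Pcdh1 ran from -0.04 to 0.22, Pcdh8 from -0.30 to 0.18, Pcdh9 from -0.46 to 0.30 and Pcdh15 from -0.83 to 2.23. In the interaction Pcdh1 ran from -0.15 to 0.10, Pcdh17 from -0.16 to 0.18 (-0.04 with library size only) and Pcdh18 from -0.35 to 0.29. With 3 libraries a group and 1730164 to 4583777 counts, Pcdh15 and Pcdh18 are limited by depth, at 1 to 39 and 22 to 98 counts per library.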
